A study of Mus musculus with 9 samples.

Results

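Genes that sense and repair DNA damage were followed by a list of 37 named members, each represented by its brightest probe set with a single gene symbol. Of these 36 were measured among the 19938 genes tested, and Rnf8 was not analysed here. Expression was read on Affymetrix arrays of total RNA from R1E, a line of mouse embryonic stem cells. Its medium held fetal bovine serum at 15% and leukemia inhibitory factor at 1000 units/ml, and no drug was given. Cells of all 3 groups were transduced with a lentivirus: 3 arrays had the first hairpin against Apela (shApela_1), 3 the second (shApela_2), and 3 the luciferase hairpin that served as control (shLuc). The sources used here give neither the hairpin sequences nor the time after transduction. The labels do not say whether the 3 arrays of a group came from separate cultures, so a p-value here reflects only how these samples scatter, which may be technical.

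Broken DNA ends are caught either by the Ku ring, which leads to direct end joining, or by the MRN complex, which leads to resection and, when a sister chromatid is at hand, to homologous recombination. The kinases Atm and Atr report breaks and single-stranded DNA to the checkpoint kinases Chek2 and Chek1 and, through them, to p53. Embryonic stem cells divide fast with a short G1 phase and are known to rely strongly on recombination. By its title, the study concerns Apela RNA in p53-driven cell death of these cells.

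Apela, the target of the hairpins, fell with both. It measured 9.76, 9.68 and 9.65 on the shApela_1 arrays and 9.79, 9.79 and 9.56 on the shApela_2 arrays, against 11.40, 11.31 and 11.19 on the shLuc arrays (log2 expression). The differences from shLuc were -1.60 (limma, adjusted p = 0.000197) and -1.58 (adjusted p = 0.000219), and neither hairpin group overlapped the control. The 8 embryonic stem cell markers lay above the median of all values, 7.06, with array means of 11.66 to 11.70 in shApela_1, 11.65 to 11.75 in shApela_2 and 11.70 to 11.71 in shLuc. Among the listed markers of other cell types, 0 passed the limma test with either hairpin. The third shApela_2 array stood apart, with a median of 7.12 against 7.03 to 7.07 on the other 8 arrays and an interquartile range of 3.29 against 3.50 to 3.59.

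All 36 measured repair genes lay above the median of all values in their mean over the 9 arrays, as did 53.4% of all genes. In shLuc the levels ran from 7.73 for Clspn, the adaptor that hands Chek1 to Atr, to 11.06 for Xrcc5, the Ku80 subunit. Brightness also depends on the probes, so these levels were not ranked between genes. Within each pathway the shLuc means covered 8.20 to 11.06 in end joining, 8.32 to 10.40 in homologous recombination, 7.73 to 10.99 in the checkpoint, 9.09 to 9.94 in the Fanconi pathway and 8.86 to 11.03 in mismatch repair. The spread between arrays was small: the median SD of a member was 0.06 in shApela_1, 0.07 in shApela_2 and 0.08 in shLuc, where all genes had 0.05, 0.09 and 0.06. The widest was that of Rpa3, the small subunit of the single-strand binder replication protein A, with an SD of 0.24 in shApela_1 and in shLuc.

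RefSeq promoter sequence of GRCm38.p6 was matched for 31 of the 36, and the 250 bases before the transcription start were searched on both strands. An E2F core (TTCGCGC, or else TTGGCGC, or else TTCCCGC) stood in 13 of the 31 (41.9%), where 10.6% of the 15614 tested genes with a promoter had one. A CCAAT box was found in 16 (51.6%, against 38.8% of those genes), an NRF1 core (GCATGCG) in 5 (16.1%, against 4.58%) and the CHR element TTTGAA in 1 (3.23%, against 15.7%). Among 67 genes of the wider repair list described below, the shares were 29.9%, 61.2%, 8.96% and 5.97% in the same order. The median GC share of the windows was 58.8% for the members and 56.8% for all tested genes. All genes include dim ones, and the motif shares of brighter genes alone were not computed. Some windows hold more than 1 of these motifs, and a match describes the letters only. Pms2 and Xpa have a CCAAT box that is not shown here, and Chek1 and Trp53bp1 have none. Stretches of 5 promoters show the CCAAT box in members of end joining, homologous recombination, single-strand binding and the checkpoint, whose array values follow. They read 5′ to 3′ on the strand of the gene, lie before the start of transcription, and have every matched motif in capitals, with ATTGG the CCAAT box, GCGGGAA the E2F core and CGCATGC the NRF1 core of the opposite strand.
Xrcc5, end joining, chr1:72307240-72307268, plus strand: gcaacttgtggaATTGGttctttttctcc
Rad54l, homologous recombination, chr4:116123724-116123752, minus strand: cactgaacgcagCCAATaggggactgtgg
Rpa1, single-strand binding, chr11:75348409-75348437, minus strand: gccgcgcggtagCCAATgcggtggctatc
Atm, checkpoint, chr9:53536703-53536848, minus strand: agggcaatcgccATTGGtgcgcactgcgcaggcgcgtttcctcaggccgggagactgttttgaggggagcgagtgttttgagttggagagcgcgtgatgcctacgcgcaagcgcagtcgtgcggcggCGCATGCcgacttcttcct
Chek2, checkpoint, chr5:110839785-110839973, plus strand: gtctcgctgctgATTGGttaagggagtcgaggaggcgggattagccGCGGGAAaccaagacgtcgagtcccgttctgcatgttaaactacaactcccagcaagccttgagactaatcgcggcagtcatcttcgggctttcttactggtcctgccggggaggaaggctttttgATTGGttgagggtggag

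With either hairpin, 0 of the 36 members passed the test over all genes (limma, threshold of 0.05 for the Benjamini-Hochberg adjusted p). Of all genes, 0.336% passed with shApela_1 and 0.015% with shApela_2. At an unadjusted p under 0.05, shApela_1 had 5 members lower (13.9%, against 3.38% of all genes) and 1 higher (2.78%, against 4.31%). With shApela_2 the counts were 2 lower (5.56%, against 2.78%) and 0 higher (2.99% of all genes). With both hairpins set jointly against shLuc, 0 of 36 passed by limma (0.015% of all genes). At an unadjusted p under 0.05 there were 2 lower (5.56%, against 2.34%) and 0 higher (2.24% of all genes). All 36 members belong to the 10650 genes above the median of all values. At the same limit, 525 of these were lower and 748 higher with shApela_1, 496 and 221 with shApela_2, and 385 and 299 jointly. All 36 had 95% intervals inside a 1.5-fold change with either hairpin, as did 98.1% of all genes with shApela_1 and 98.3% with shApela_2. The same held for both hairpins together (99.3% of all genes). The interval bounds farthest from 0 were -0.46 for Atr and 0.34 for Lig4 with shApela_1, and -0.55 for Rpa3 and 0.24 for Fanci with shApela_2.

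**Figure D1:**
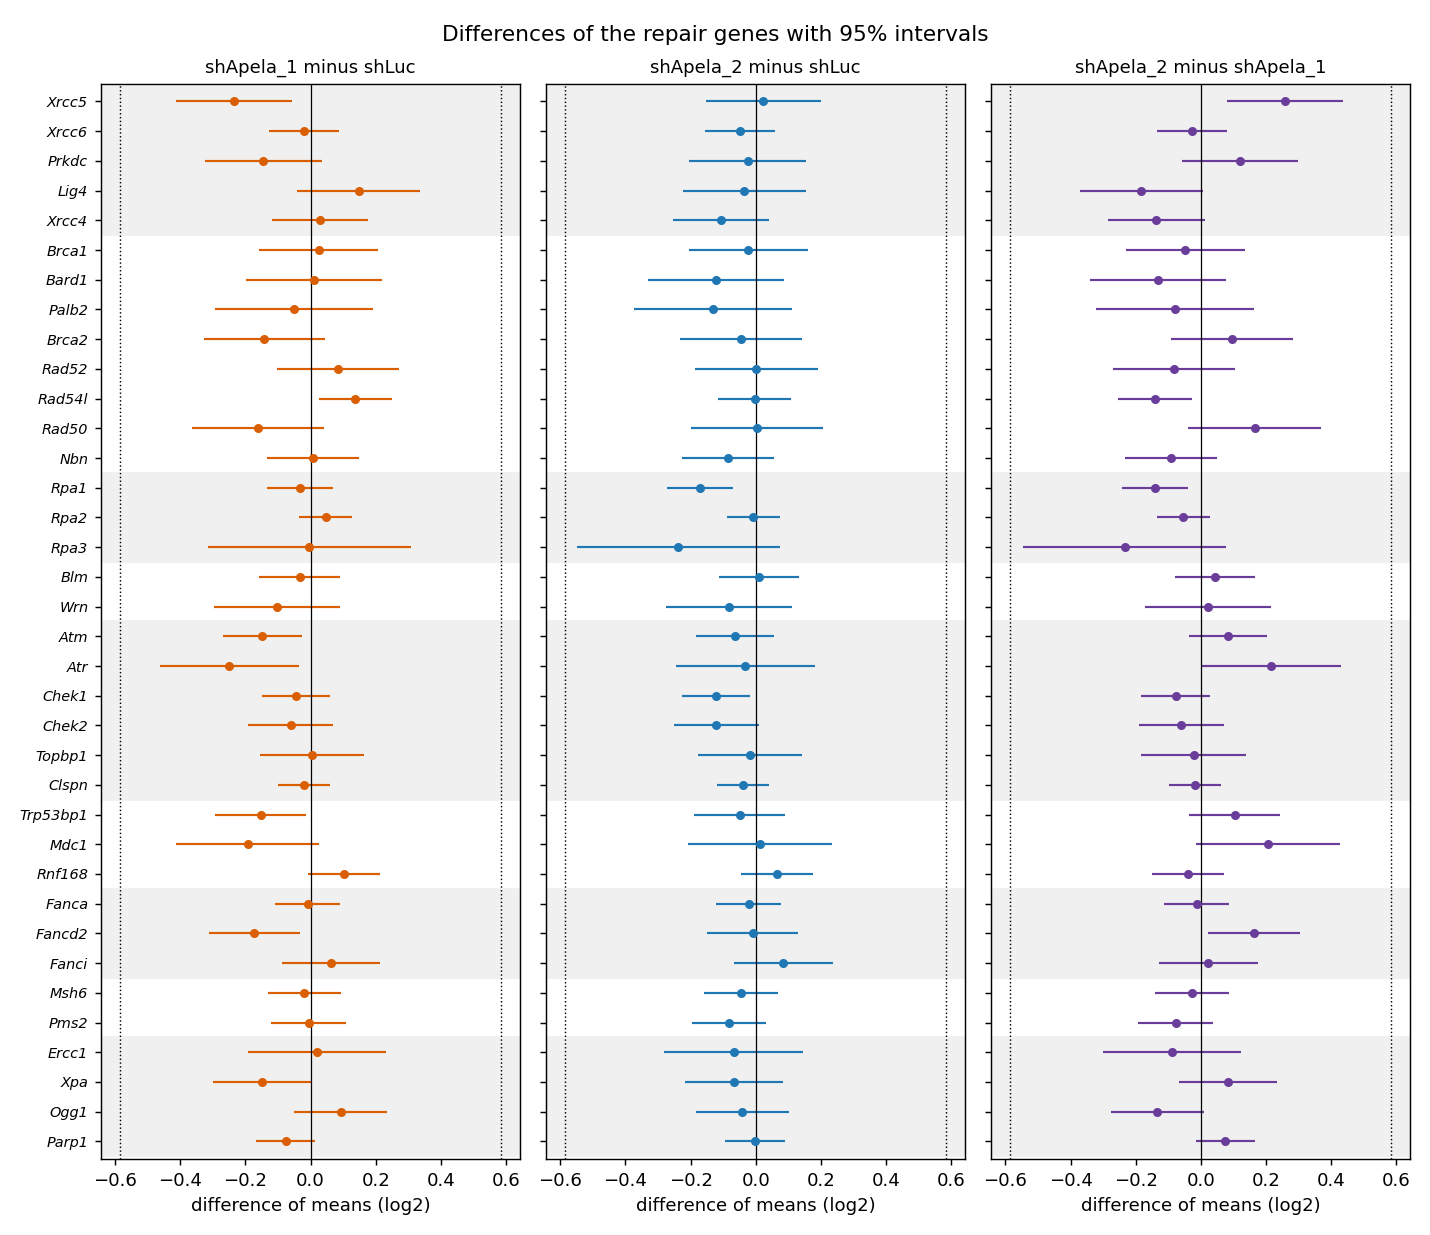
Difference of mean log2 level for each of the 36 repair genes (points) with its 95% interval from limma (bars), for shApela_1 minus shLuc, shApela_2 minus shLuc and shApela_2 minus shApela_1; shading separates pathways and dotted lines mark a 1.5-fold change. Every interval lies inside the dotted lines.

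Most differences were negative. With shApela_1 23 of the 36 members lay below shLuc (63.9%, against 45.5% of all genes), with a median of -0.02 beside 0.01 for all genes. With shApela_2 29 of 36 lay below (80.6%, against 42.5% of all genes), with a median of -0.04 beside 0.02. Both hairpins together gave 28 of 36 below (77.8%, against 40.7%). All 36 members belong to the 10650 genes above the median of all values, which are the closer comparison. Of those 10650, 4612 lay below shLuc with shApela_1 (median 0.01) and 6592 with shApela_2 (median -0.02). With both hairpins together 5593 did (median 0.00). Both comparisons use the same 3 shLuc arrays, so their signs are not independent. The count for shApela_2 moved with single arrays and with scaling: it was 24 of 36 without the third shApela_2 array, 23 without the third shLuc array, 19 with a median of -0.01 after a second quantile normalization, and 34 with a median of -0.08 after the array medians were centred. When the arrays numbered 3 were left out, an alternative chosen after seeing the data, 15 lay below and the median with shApela_2 was 0.01. With shApela_1 the count was 20 without the third shLuc array and 29 without the first.

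**Figure D2:**
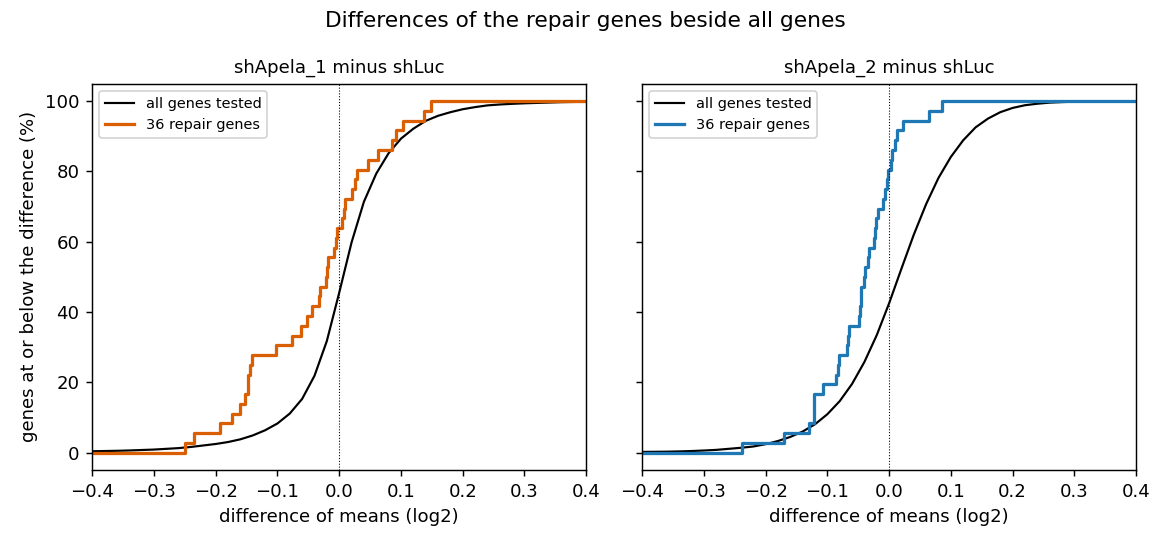
Cumulative share of genes (%) at or below a given difference of mean log2 level from shLuc, for the 36 repair genes (coloured steps) and all 19938 genes tested (black line). The steps cross 0 at 63.9% with shApela_1 and 80.6% with shApela_2, where all genes cross at 45.5% and 42.5%. The black line includes dim genes. Of the 10650 genes above the median of all values, which hold all 36, 4612 lay below 0 with shApela_1 and 6592 with shApela_2.

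Among the end joining genes Xrcc5 had the smallest p. It encodes Ku80, which forms the ring around DNA ends with Ku70, the product of Xrcc6. Xrcc5 measured 10.74, 10.74 and 11.01 on the shApela_1 arrays and 11.05, 11.08 and 11.14 on the shApela_2 arrays, against 11.04, 10.99 and 11.17 on the shLuc arrays. The first 2 shApela_1 arrays lay below all other arrays and the third lay within the shLuc range. The difference was -0.24 with shApela_1 (SE 0.08, 95% interval -0.41 to -0.06, adjusted p = 0.411) and 0.02 with shApela_2 (interval -0.15 to 0.20, adjusted p = 0.924). Xrcc6, the partner subunit, differed by -0.02 and -0.05, with intervals from -0.13 to 0.09 and from -0.16 to 0.06.

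Prkdc, the kinase that Ku recruits, measured 8.97, 9.05 and 8.98 with shApela_1, below the shLuc values of 9.08, 9.24 and 9.12 on every array (-0.14, adjusted p = 0.817). Lig4, the ligase that seals the ends, had a difference of 0.15 with shApela_1 (adjusted p = 0.835) and -0.03 with shApela_2. Xrcc4, the scaffold of that ligase, had 0.03 and -0.11. The pathway median was -0.02 with shApela_1 and -0.03 with shApela_2.

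Homologous recombination genes scattered around 0 with shApela_1, with 5 of 8 above shLuc and a median of 0.01. Rad54l, a motor protein of strand exchange, measured 9.64, 9.63 and 9.72 on the shApela_1 arrays and 9.47, 9.57 and 9.52 on the shApela_2 arrays, against 9.45, 9.56 and 9.57 on the shLuc arrays. All 3 shApela_1 arrays were above every array of the other groups. The difference was 0.14 with shApela_1 (SE 0.05, interval 0.02 to 0.25, adjusted p = 0.489) and 0.00 with shApela_2 (adjusted p = 0.988). Brca2, which loads the recombinase, and Rad50, the ATPase of the MRN complex, had -0.14 and -0.16 with shApela_1 and -0.05 and 0.00 with shApela_2.

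Brca1, a ubiquitin ligase that promotes resection, its partner Bard1, the MRN subunit Nbn and the bridge protein Palb2 differed by 0.02, 0.01, 0.01 and -0.05 with shApela_1. With shApela_2 the same 4 had -0.02, -0.12, -0.09 and -0.13. For Bard1 and Palb2 the third shApela_2 array was the lowest of all 9, at 9.60 and 7.96, where the first 2 shApela_2 arrays read 9.90 and 9.97 for Bard1 and 8.32 and 8.29 for Palb2. Rad52, an annealing protein, had 0.09 with shApela_1 and 0.00 with shApela_2. Dimmer probe sets disagreed in part: that of Nbn gave -0.02 with shApela_1 and 0.10 with shApela_2. The 2 dimmer ones of Bard1 gave 0.15 and 0.12 with shApela_1, and 0.00 and 0.04 with shApela_2.

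Rpa1, the large subunit of replication protein A, measured 10.50, 10.51 and 10.61 on the shApela_1 arrays and 10.41, 10.43 and 10.36 on the shApela_2 arrays, against 10.53, 10.58 and 10.60 on the shLuc arrays. The shApela_2 arrays lay below all 6 others. The difference was -0.17 with shApela_2 (SE 0.04, interval -0.27 to -0.07, adjusted p = 0.68), which ranked 114 of the 19938 genes by p, and -0.03 with shApela_1 (adjusted p = 1). For both hairpins jointly, Rpa1 had the smallest p of the members (-0.10, interval -0.19 to -0.01, adjusted p = 0.952). Rpa2, the middle subunit, differed by 0.05 with shApela_1 and -0.01 with shApela_2.

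Rpa3 had the widest intervals of the members. It read 9.58, 9.27 and 9.73 with shApela_1 and 9.29, 9.35 and 9.24 with shApela_2, against 9.34, 9.46 and 9.80 with shLuc, and the shApela_2 arrays overlapped the shLuc arrays. The difference of -0.24 with shApela_2 had an interval from -0.55 to 0.07, and the dimmer probe set of this gene gave -0.01. With shApela_1 the bright probe set of Rpa3 had 0.00 and the dimmer one 0.14 (limma, unadjusted p = 0.0347). Between the hairpins the bright one had -0.23 and the dimmer one -0.16 (limma, unadjusted p = 0.0256). The RecQ helicases Blm, which dissolves recombination intermediates, and Wrn, a helicase with exonuclease activity, had no adjusted p under 0.05. Blm had -0.03 with shApela_1 and 0.01 with shApela_2. Wrn measured 7.69, 7.65 and 7.77 on the shApela_1 arrays and 7.87, 7.79 and 7.51 on the shApela_2 arrays, against 7.77, 7.85 and 7.80 on the shLuc arrays (-0.10 and -0.08). The third shApela_2 array of Wrn was the lowest of all 9.

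Atm, the kinase activated at breaks, measured 9.08, 9.11 and 9.25 on the shApela_1 arrays and 9.22, 9.25 and 9.22 on the shApela_2 arrays, against 9.22, 9.32 and 9.34 on the shLuc arrays. On the third shApela_1 array Atm lay above the lowest shLuc array. The difference was -0.15 with shApela_1 (interval -0.27 to -0.03, adjusted p = 0.48) and -0.06 with shApela_2 (adjusted p = 0.701). Atr, the kinase that responds to single-stranded DNA, read 9.14, 9.22 and 9.21 with shApela_1, against 9.36, 9.55 and 9.40 with shLuc, with no overlap (-0.25, interval -0.46 to -0.04, adjusted p = 0.524). With shApela_2 its arrays spread from 9.20 to 9.60 (-0.03).

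Chek1 and Chek2 are the effector kinases of Atr and Atm. Chek1 measured 10.91, 10.93 and 10.92 on the shApela_1 arrays and 10.82, 10.92 and 10.78 on the shApela_2 arrays, against 10.97, 11.01 and 10.92 on the shLuc arrays. The difference was -0.12 with shApela_2 (interval -0.23 to -0.02, adjusted p = 0.68) and -0.04 with shApela_1. Chek2 measured 10.20, 10.11 and 10.30 on the shApela_1 arrays and 10.15, 10.16 and 10.12 on the shApela_2 arrays, against 10.24, 10.20 and 10.35 on the shLuc arrays. Its shApela_2 arrays lay just below all shLuc arrays (-0.12, interval -0.25 to 0.01, adjusted p = 0.68). Topbp1, the activator of Atr, and Clspn differed by at most 0.04 in size with either hairpin. All 6 checkpoint members lay below shLuc with shApela_2, with a median of -0.05, where 42.5% of all genes lay below. So did the 3 single-strand binding genes (median -0.17), the 2 of mismatch repair (-0.06) and the 4 of excision and single-strand break repair (-0.05). In break-site chromatin 2 of 3 lay above. End joining had 4 of 5 below, homologous recombination 6 of 8, the RecQ helicases 1 of 2 and the Fanconi pathway 2 of 3. Of the 10650 genes above the median of all values, 6592 lay below. With shApela_1 5 of the 6 checkpoint members lay below shLuc, also with a median of -0.05, where 4612 of the 10650 did.

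Trp53bp1, a reader of modified histones that limits resection, measured 8.97, 9.02 and 9.15 on the shApela_1 arrays and 9.14, 9.11 and 9.20 on the shApela_2 arrays, against 9.10, 9.21 and 9.28 on the shLuc arrays. The shApela_1 and shLuc arrays overlapped, and the difference was -0.15 (interval -0.29 to -0.01, adjusted p = 0.577). Mdc1, which binds phosphorylated H2AX and recruits later factors, read 9.92, 9.94 and 9.86 with shApela_1, against 10.06, 10.25 and 9.98 with shLuc (-0.19, adjusted p = 0.762). Rnf168, a ubiquitin ligase of histone H2A, had 0.10 with shApela_1 (adjusted p = 0.706) and 0.07 with shApela_2.

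The Fanconi pathway repairs crosslinks between DNA strands. Fancd2, a subunit of the clamp that is ubiquitinated at crosslinks, measured 9.55, 9.62 and 9.79 on the shApela_1 arrays and 9.79, 9.84 and 9.82 on the shApela_2 arrays, against 9.78, 9.81 and 9.89 on the shLuc arrays. As with Xrcc5, the first 2 shApela_1 arrays were low and the third was within the shLuc range. The difference was -0.17 with shApela_1 (interval -0.31 to -0.03, adjusted p = 0.475) and -0.01 with shApela_2. Fanci, its partner in the clamp, had 0.06 and 0.09, and the core complex subunit Fanca had -0.01 and -0.02.

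In mismatch repair, Msh6, a subunit that recognises mismatches, had -0.02 with shApela_1 and -0.05 with shApela_2. Pms2, an endonuclease subunit, measured 8.81, 8.83 and 8.92 on the shApela_1 arrays and 8.79, 8.85 and 8.69 on the shApela_2 arrays, against 8.84, 8.86 and 8.88 on the shLuc arrays. It differed by -0.01 with shApela_1 and by -0.08 with shApela_2 (interval -0.20 to 0.03, adjusted p = 0.68).

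In excision and single-strand break repair, Xpa, a scaffold of nucleotide excision repair, had the smallest p. It measured 8.17, 8.13 and 8.38 on the shApela_1 arrays and 8.31, 8.33 and 8.29 on the shApela_2 arrays, against 8.31, 8.37 and 8.45 on the shLuc arrays. The difference was -0.15 with shApela_1 (interval -0.30 to 0.00, adjusted p = 0.66) and -0.07 with shApela_2, and the third shApela_1 array again lay among the shLuc values. Parp1, the enzyme that marks strand breaks with poly(ADP-ribose), read 10.85, 10.87 and 10.91 with shApela_1, against 10.91, 10.97 and 10.98 with shLuc (-0.08, adjusted p = 0.794). Ogg1, a glycosylase for oxidised guanine, had 0.09 and -0.04, and Ercc1, a nuclease subunit, had 0.02 and -0.07.

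**Figure D3:**
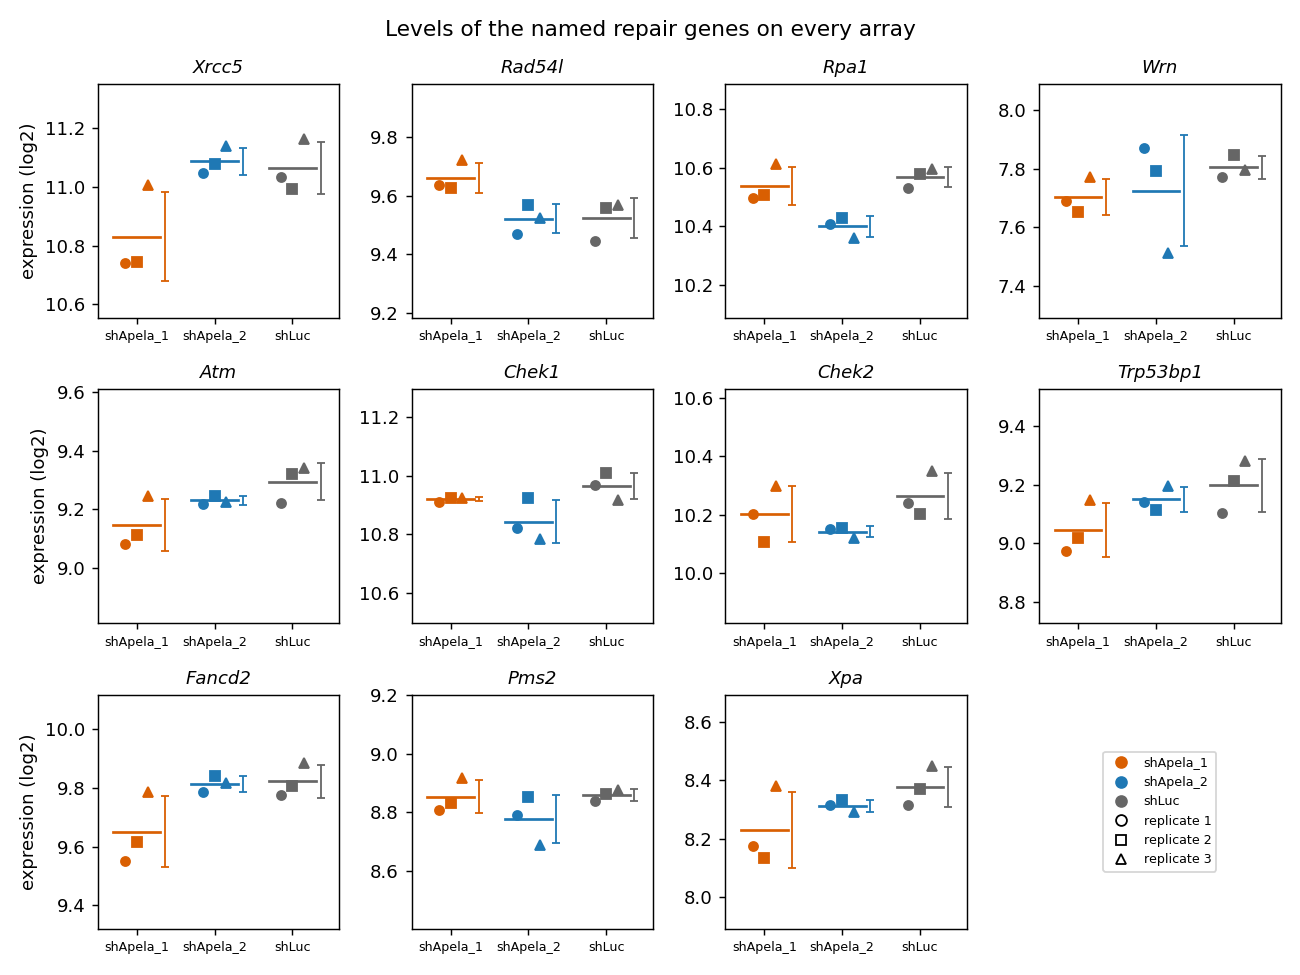
Log2 level of the 11 repair genes with the smallest p-values by comparison and pathway on each of the 9 arrays; symbols mark the replicate number, horizontal lines the group mean and side bars 1 SD (n = 3), and each panel spans the same height in log2 units. The third shApela_1 array (triangle) is the highest of its group for Xrcc5, Atm, Fancd2 and Xpa, and the 3 shApela_2 arrays of Rpa1 lie below the other groups.

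Groups that did not overlap on any array were found for 7 members with shApela_1 and 4 with shApela_2. With shApela_1 Prkdc, Atr, Mdc1 and Parp1 lay below shLuc (11.1% of the members, against 5.61% of all genes) and Rad54l, Rpa2 and Rnf168 above (8.33%, against 8.05%). With shApela_2 Nbn, Rpa1, Chek2 and Clspn lay below (11.1%, against 4.65%) and 0 above (5.68% of all genes). The 10650 genes above the median of all values, which hold all members, are the closer comparison. Without overlap, 740 of them lay below and 1228 above with shApela_1. With shApela_2 these counts were 789 and 388. Against both hairpins together, 0 members did not overlap (1.44% of all genes higher and 0.727% lower).

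Position within a group went with the replicate number. The third array was the highest of its group for 25 of 36 members in shApela_1 (69.4%, against 34.4% of all genes) and for 23 in shLuc (63.9%, against 39.2%). In shApela_2 the third array was the lowest for 21 members (58.3%, against 33.5%) and the highest for 8 (22.2%, against 54%). In the wider repair list described below, that array was the lowest for 61.9% of 84 genes and the highest for 25%. It is the array with the narrow interquartile range of 3.29. All genes include dim ones, and these shares were not computed for brighter genes alone. The median deviation of the members from their shLuc means was -0.04, -0.06 and 0.01 on the shApela_1 arrays and -0.03, -0.01 and -0.08 on the shApela_2 arrays, against -0.05, 0.01 and 0.05 on the shLuc arrays. In the same arrays the mean of 6 trophectoderm markers was 6.86 to 7.16 in shApela_1 and 7.14 to 7.24 in shApela_2, against 7.17 to 7.25 in shLuc, with 0 markers past the test. Of these 6, 2 lay above the median of all values, with means over the arrays from 5.63 for Elf5 to 9.65 for Krt8. The mean of 8 fibroblast feeder markers was 6.57 to 6.78 in shApela_1 and 6.74 to 6.84 in shApela_2, against 6.73 to 6.84 in shLuc, and 5 of the 8 lay above the median, from 4.61 for Lum to 8.79 for Acta2. The part of other cell types in the repair gene values was not tested, and fewer cells of a type and less RNA per cell cannot be told apart in these bulk samples.

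**Figure D4:**
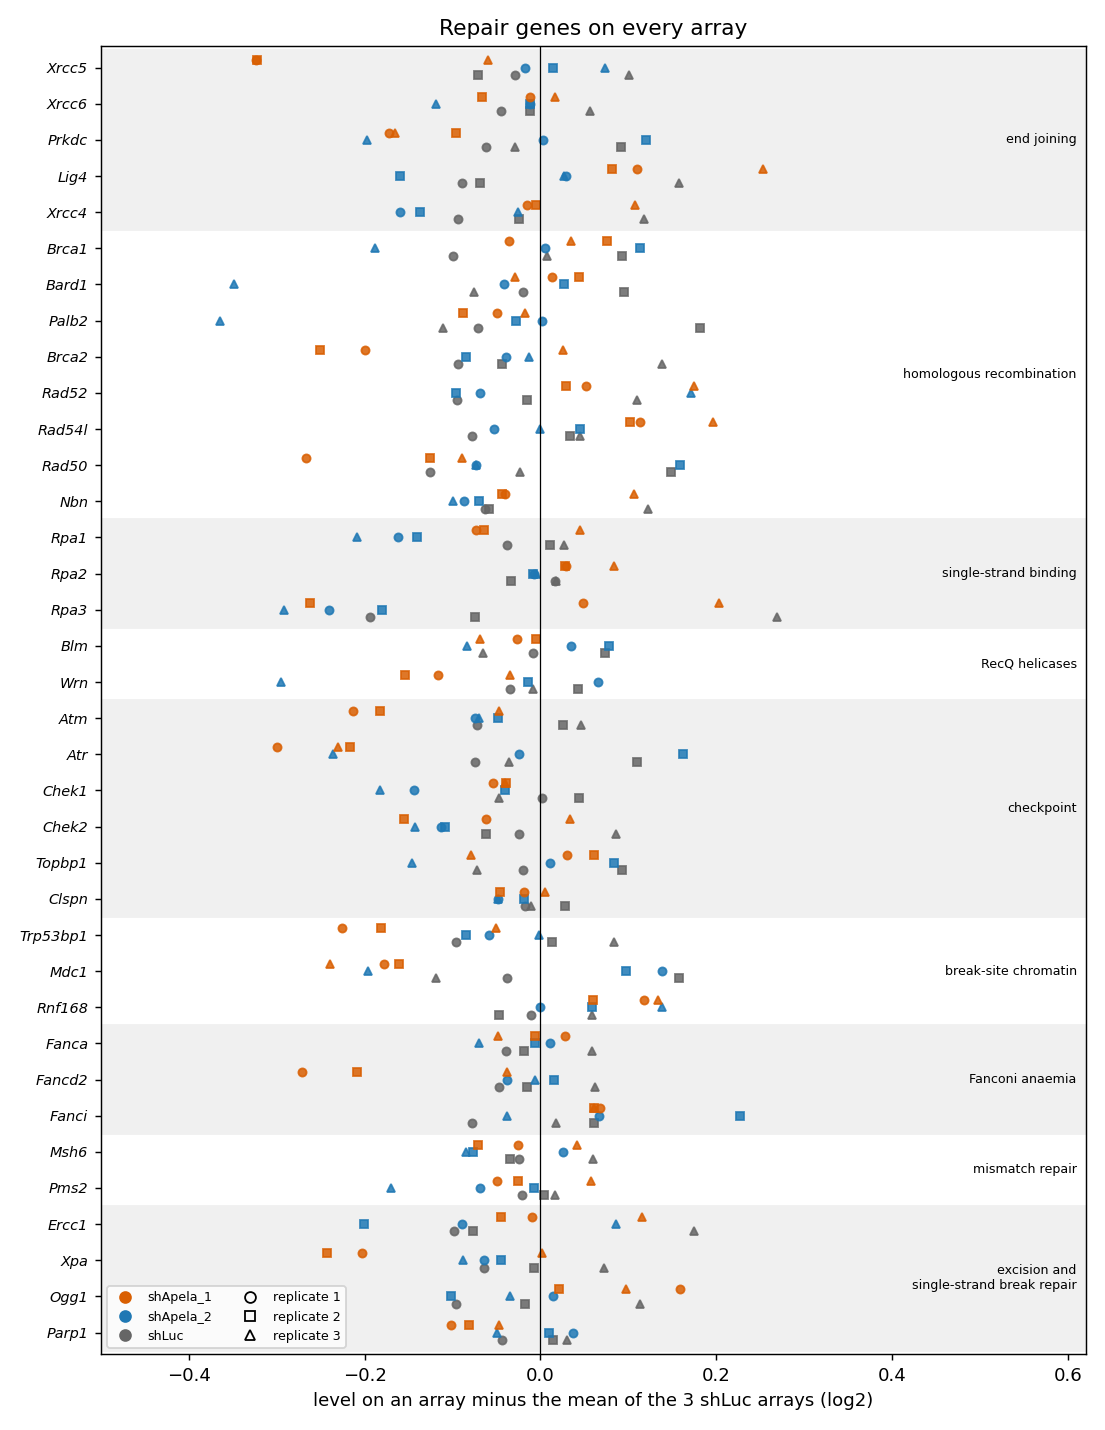
Level of each of the 36 repair genes on each of the 9 arrays minus the mean of the 3 shLuc arrays (log2), with colour for the group, symbol for the replicate number and shading for the pathway. Triangles of shApela_1 and shLuc often lie to the right of their group, and triangles of shApela_2 to the left, as for Bard1, Palb2 and Wrn.

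Set directly against each other, the hairpins differed in 0 of 36 members by limma, where 0.948% of all genes passed (0.356% higher and 0.592% lower in shApela_2). At an unadjusted p under 0.05, 3 members were higher and 2 lower in shApela_2 (8.33% and 5.56%, against 5.06% and 7.84% of all genes). Of the members 22 lay lower in shApela_2 (61.1%, against 42.1%), with a median of -0.03. Among the 10650 genes above the median of all values, where all members lie, 6594 lay lower, also with a median of -0.03. All 36 intervals were inside a 1.5-fold change (97% of all genes). The groups did not overlap for Xrcc5 and Rad50, higher in shApela_2 (5.56%, against 7.49%). Nor did they for Lig4, Xrcc4, Rad54l, Nbn, Rpa1, Rpa2 and Ogg1, lower (19.4%, against 10.1%). Of the 10650 genes above the median of all values, 722 were higher and 1830 lower without overlap. Xrcc5 led, 0.26 higher in shApela_2 than in shApela_1 (interval 0.08 to 0.44, adjusted p = 0.203), with no overlap between the groups. With the replicate number as a block, the same difference had an adjusted p of 0.0399, and without the arrays numbered 3 it was 0.32 (adjusted p = 0.0198). Rpa1 was lower in shApela_2 than in shApela_1 (log2 difference -0.14, interval -0.24 to -0.04, adjusted p = 0.226) and so was Rad54l (-0.14, interval -0.25 to -0.03, adjusted p = 0.282). Fancd2 (0.16, adjusted p = 0.313) and Atr (0.22, adjusted p = 0.38) lay on the other side. For shApela_1 against shLuc, Xrcc5 had an adjusted p of 0.0814 with the block and 0.0355 without the arrays numbered 3 (-0.27).

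A wider list of the same pathways added 84 measured genes of 97 listed. With either hairpin 0 of them passed by limma. At an unadjusted p under 0.05, shApela_1 had 3 higher (3.57%, against 4.31% of all genes) and 5 lower (5.95%, against 3.38%), and shApela_2 had 0 higher (2.99% of all genes) and 1 lower (1.19%, against 2.78%). The median was 0.01 with shApela_1, where 36 of the 84 lay below shLuc (42.9%, against 45.5% of all genes). It was -0.03 with shApela_2, where 60 lay below (71.4%, against 42.5%). Of the 84, 80 had a mean above the median of all values (95.2%). Among the 10650 genes above it, 6592 lay below shLuc with shApela_2, with a median of -0.02. Rif1, which acts with Trp53bp1 to limit resection, had the smallest p with shApela_1. It measured 11.35, 11.33 and 11.30 on the shApela_1 arrays and 11.55, 11.56 and 11.40 on the shApela_2 arrays, against 11.62, 11.57 and 11.53 on the shLuc arrays. The shApela_1 arrays lay below all others, by -0.25 against shLuc (adjusted p = 0.122, 0.0485 with the replicate number as a block and 0.0273 without the third shApela_2 array). Between the hairpins Rif1 was higher in shApela_2 by 0.18 (adjusted p = 0.18). That difference was 0.23 without the third shApela_2 array (adjusted p = 0.0421) and 0.21 without the arrays numbered 3 (adjusted p = 0.0444).

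Between the hairpins 1 gene of the wider list passed (1.19%, near the 0.948% of all genes). Dna2, a nuclease and helicase of long-range resection, measured 9.69, 9.73 and 9.64 on the shApela_2 arrays, against 9.89, 9.90 and 9.96 on the shApela_1 arrays, and was lower in shApela_2 by a log2 difference of -0.23 (adjusted p = 0.0456). The shLuc arrays lay between the groups at 9.80, 9.86 and 9.83, so that Dna2 had 0.09 with shApela_1 and -0.14 with shApela_2. This call ended without any 1 of the 9 arrays (adjusted p from 0.0527 to 0.153). Polq, the polymerase of theta-mediated end joining, was lower in shApela_2 by -0.27 (adjusted p = 0.144, and 0.0238 with the block). The leads of the other pathways against shLuc were Cdc25a, a phosphatase that checkpoint kinases inhibit (0.14 with shApela_1), the mismatch recognition subunit Msh3 (-0.16 with shApela_1), the Blm partner Rmi1 (0.10 with shApela_1), the Fanconi core subunit Fancc (-0.13 with shApela_2) and Ercc4, the catalytic partner of Ercc1 (-0.16 with shApela_2), with adjusted p from 0.358 to 0.705.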

How the data were processed

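The authors deposited log2 expression, a value for each probe set on each array, made by RMA (background correction, quantile normalization, probe summary) in Partek 6.6, per the submitters' processing notes. No source used here names the log base, which was read from the range of values. GEO's platform annotation gave 21775 of 28853 probe sets 1 gene symbol, 1578 several and 5500 none; those with 1 symbol were used, and the brightest stood for each of 19938 genes. Sample titles gave the groups and replicate numbers. A single two-sided limma 3.58.1 model (lmFit, eBayes, R 4.3.3) held all 9 arrays, with residual degrees of freedom of 6 and prior degrees of freedom of 2.72. It was also run on simulated data with noise independent between arrays. That setting lacks the deviations shared by same-numbered arrays described below. Benjamini-Hochberg adjustment ran over all genes, and 95% intervals are for single genes. Equal values made up at most 7.54% of genes in any pair of arrays. The number of arrays limits the precision. Members, pathways, the wider list and markers were chosen with earlier results of these data known. By rule, array values are given for the 3 members with the smallest p in each of 4 comparisons and for the smallest p against shLuc in each pathway; other members, such as Atr, Prkdc and Mdc1, were added after their values were seen. Alternatives changed the prior, scaling, filter on dim genes, probe set rule, arrays and replicate block.

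To see whether replicate numbers pair arrays, deviations from group means were correlated over all genes. Same-numbered arrays of shApela_1 and shLuc gave 0.44, 0.40 and 0.68, and those of shApela_2 and shApela_1 gave 0.18, 0.21 and 0.21. Each is over 0.1, the bar used here, so these groups count as paired, on the data alone. Arrays with different numbers were not correlated, so the bar cannot tell a shared replicate from other array effects. Same-numbered arrays of shApela_2 and shLuc gave -0.01, 0.67 and 0.47, so the bar was missed by the first pair. Over the 36 members alone the same pairs gave 0.20, 0.77 and 0.73 for shApela_2 and shLuc, and 0.13, 0.70 and 0.75 for shApela_1 and shLuc. Those of shApela_2 and shApela_1 gave 0.40, 0.51 and 0.53, and all are over 0.1. The main model held no replicate term and so did not use this pairing, which only the replicate block did. With the block Xrcc5 (limma, adjusted p = 0.0399) and Polq (0.0238) passed between the hairpins, and Rif1 (0.0485) for shApela_1 against shLuc.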

Additional observations from a re-analysis of the deposited data

Results flagged for a closer look

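Dna2 differed between the hairpins by the test of the difference itself: its log2 level was lower in shApela_2 than in shApela_1 by -0.23 (limma, adjusted p = 0.0456), on 3 of 3 arrays. The call was lost when any 1 array was left out (adjusted p from 0.0527 to 0.153), with the trend and robust prior (0.065), with centred medians (0.0512), with only the compared arrays (0.154) and without the arrays numbered 3 (0.0705).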

How the results depend on the processing

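Of 286 recomputed differences of the named members, 283 kept their direction and side of the threshold, 0 reversed and 3 passed, all of Xrcc5. Called members stayed at 0 except without the arrays numbered 3 (1 for shApela_1 against shLuc and 1 for shApela_2 against shApela_1) and with the replicate block (1 for shApela_2 against shApela_1), each time Xrcc5. Leaving out the arrays numbered 3, chosen after seeing the data, also put the median of the members at 0.01 for shApela_2 against shLuc. Over all genes, 67 passed for shApela_1 against shLuc, where a trend with a robust prior gave 37, centred medians 31, the replicate block 190, only the compared arrays 44, leaving out those numbered 3 gave 249, and leaving out 1 array 3 to 146. For shApela_2 against shLuc, 3 passed, against 7 after a second quantile normalization, 8 with the block and 2 to 6 without 1 array. For both hairpins 3 passed, against 7 after that normalization, 2 with the block, 2 without the arrays numbered 3 and 1 to 6 without 1 array. For shApela_2 against shApela_1, 189 passed, against 653 with the block, 434 without the arrays numbered 3, 28 with only the compared arrays and 19 to 222 without 1 array. In the wider list 0 passed for shApela_1 against shLuc, against 1 with the block, 1 without the arrays numbered 3 and 0 to 1 without 1 array. There 1 passed for shApela_2 against shApela_1, against 2 with the block, 0 with the trend and robust prior, 0 with centred medians, 0 with only the compared arrays and 0 to 1 without 1 array. The gene called without the third shApela_2 array, and the 1 called without the arrays numbered 3, was Rif1 and not Dna2. Scaling moved the split of calls: shApela_1 against shLuc had 28 higher and 39 lower, against 29 and 70 after a second quantile normalization, and shApela_2 against shApela_1 had 71 higher and 118 lower, against 134 and 120 after it and 38 and 125 with centred medians. The cause of these shifts was not tested. The highest counts without 1 array came without the third shApela_2 array for all 4 comparisons.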
